A study of Mus musculus with 9 samples.

Results

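The 7 genes described here encode proteins that store and pass on high-energy phosphate in heart muscle: the creatine kinases Ckm, Ckb and Ckmt2, the creatine transporter Slc6a8, and the adenylate kinases Ak1, Ak3 and Ak4. They were taken by symbol from the deposited expression tables, and all 7 were found among the 15779 genes listed in any table. The set was chosen by symbol and partly selected on measured values, since Ak4 stood high among genes with larger values in treated than in saline-treated mutant hearts, so that comparison is described below without a test. Messenger RNA was sequenced from hearts of adult C57BL/6J mice in 3 groups of 3 libraries. Wild-type mice were given saline, mice homozygous for the Mybpc3 nonsense mutation R946X were given saline, and homozygous mutants were given exABE8e at a high dose. The labels gave no dose in units, no sex and no age beyond adult. Per the series' own text, the adenine base editors were carried by the adeno-associated virus AAV9 for expression in cardiomyocytes; which promoter drove them, and whether a library came from a single animal, is not given in the sources used here. The p-values therefore measure the spread between these libraries, and in whole heart tissue fewer cells of a type and less RNA per cell cannot be told apart.

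Creatine kinases move a phosphate group between ATP and creatine. The mitochondrial enzyme makes phosphocreatine where ATP is produced, and the cytosolic enzymes rebuild ATP from it beside the myofibrils and ion pumps. Adenylate kinases turn 2 ADP into ATP and AMP, and the rising AMP is read by the AMP-activated protein kinase. The heart takes up its creatine through the transporter, since it makes little of its own, and in failing hearts a lower phosphocreatine content and a shift from the muscle to the brain isoform of creatine kinase are well known.

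The values are whole numbers that sum to between 999152 and 999382 in each library, so they are a scaled quantity and not read counts. Depth is unknown and no counting error can be given. The unit is not named. Across 13023 genes the mean value and the median transcript length had a Spearman rho of -0.04, given as a description, and Ttn, whose transcript is 16.4 times as long as that of Myh6, had 23.0% of the Myh6 value. Levels of different genes are set beside each other below only as deposited. Mybpc3, the mutated gene, had values of 1510, 1795 and 2039 in wild-type, 133, 142 and 186 in saline mutant and 1024, 1374 and 1332 in treated hearts. The labels and this gene's values went together in all 9 libraries. The cardiomyocyte genes Myh6, Tnnt2, Tnni3, Actn2, Ryr2 and Myl2 were present in every library, with a summed value between 31891 and 41238. Xist, expressed in females, was above 0 in wild type replicate 1, saline mutant replicate 3 and treated replicate 1, 1 library of each group. The Y-linked gene Ddx3y was 0 in the first pair of these, but treated replicate 1 had both, with Xist at 39 and Ddx3y at 38, where the libraries without Xist had Ddx3y between 70 and 97.

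The members lie on 7 chromosomes. On GRCm38, the build that mm10 names in the submitters' processing notes, GENCODE M21 places Ckm on chromosome 7 from 19404776 to 19422841 (plus strand), Ckb on chromosome 12 from 111669361 to 111672338 (minus strand) and Ckmt2 on chromosome 13 from 91853387 to 91876885 (minus strand). Slc6a8 lies on chromosome X from 73673150 to 73682502 (plus strand). Ak1 lies on chromosome 2 from 32621758 to 32635058 (plus strand), Ak3 on chromosome 19 from 29020833 to 29047961 (minus strand) and Ak4 on chromosome 4 from 101419277 to 101466995 (plus strand). Ckb spans 2978 bases and Ak4 47719 bases.

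Ak4 and Ckb were the members that passed the test between saline mutant and wild-type hearts, in opposite directions, and their promoters are shown with those of their relatives Ak3 and Ckm, which did not pass. Each window holds the 250 bases before the most upstream RefSeq start site of the gene (GRCm38.p6), read 5′ to 3′ on the gene's own strand. Capitals mark TTACGTAA and GCGTG on either strand in Ak4, TATAAA and CCAAT on either strand in Ckb, and CANNTG in Ckm. In Ak3 nothing is marked.
Ak4: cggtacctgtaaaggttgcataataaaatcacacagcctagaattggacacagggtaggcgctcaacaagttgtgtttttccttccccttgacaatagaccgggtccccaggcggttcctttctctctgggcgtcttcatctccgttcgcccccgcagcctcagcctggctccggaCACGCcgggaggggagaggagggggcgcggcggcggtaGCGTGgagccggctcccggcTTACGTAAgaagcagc
Ak3: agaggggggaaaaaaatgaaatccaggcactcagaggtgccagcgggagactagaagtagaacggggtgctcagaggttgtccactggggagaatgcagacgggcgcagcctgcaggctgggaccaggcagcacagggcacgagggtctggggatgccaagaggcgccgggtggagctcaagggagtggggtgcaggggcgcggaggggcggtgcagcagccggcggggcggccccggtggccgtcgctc
Ckb: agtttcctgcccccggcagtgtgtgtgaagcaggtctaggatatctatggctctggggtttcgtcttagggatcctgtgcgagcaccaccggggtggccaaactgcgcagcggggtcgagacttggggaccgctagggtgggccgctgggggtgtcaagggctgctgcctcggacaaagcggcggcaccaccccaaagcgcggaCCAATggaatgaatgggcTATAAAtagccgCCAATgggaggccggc
Ckm: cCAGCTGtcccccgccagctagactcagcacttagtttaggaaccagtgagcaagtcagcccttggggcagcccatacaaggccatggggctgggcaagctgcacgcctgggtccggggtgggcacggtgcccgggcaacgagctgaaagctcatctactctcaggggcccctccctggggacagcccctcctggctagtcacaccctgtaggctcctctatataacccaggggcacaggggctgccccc
The Ak4 window is chr4:101419039-101419288, plus strand. The Ak3 window is chr19:29047962-29048211, minus strand. The Ckb window is chr12:111672339-111672588, minus strand, and the Ckm window is chr7:19410844-19411093, plus strand. The Ckm window lies inside the GENCODE span of the gene, whose first annotated base is further upstream, and the Ak4 window reaches just past the GENCODE start.

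The 4 windows are all rich in G and C, at 60.4% for Ak4, 68% for Ak3, 62.8% for Ckb and 64.8% for Ckm, against a median of 52% over the same window of 27025 genes. The CpG dinucleotide occurred 19 times in the Ak4 window, 16 times in those of Ak3 and Ckb and 6 times in that of Ckm, where 6 is also the median of all windows. The palindrome TTACGTAA, a sequence bound by the PAR bZIP factors and by Nfil3, lies 16 to 9 bases before the Ak4 start and was found in 0.0999% of all windows. It was searched for after the Ak4 sequence had been read. GCGTG, which with ACGTG forms the core of the hypoxia response element, occurred at 2 places in the Ak4 window and in 28.3% of all windows; ACGTG occurred in 16.5% of all windows and in none of these 4. The Ckb window had TATAAA from 28 to 23 bases before the start (13% of all windows) and CCAAT at 2 places (34.5%). CANNTG, the E-box read by myogenic factors among others, occurred once in the Ckm window and in 66.1% of all windows. GCGTG also occurred once in the Ckm window and CCAAT once in the Ak4 window, and neither is capitalised there. All motifs were searched on both strands, and none of them contains another of the set. A match is only a description of these letters.

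The comparison of saline mutant with saline wild-type hearts asks what the Mybpc3 mutation changes. Ak4 fell and Ckb rose in the mutant hearts, while the muscle creatine kinase, the mitochondrial creatine kinase, the creatine transporter and the other adenylate kinases did not pass the test. Thus 2 of 7 members were called, 1 higher and 1 lower, where 7.70% of the 13632 genes tested were called, 4.56% of them higher and 3.14% lower as shares of all tested. The groups did not overlap in 4 of 7 members, Ckb, Ak1, Ak3 and Ak4, against 21.6% of all genes. Of these, 3 were lower in the mutants (8.78% of all genes) and 1 was higher (12.8%). The median log2 difference of the 7 members was -0.19, beside 0.07 over all genes tested. Ak4 is in each of these counts, and its values in the saline mutant libraries entered the choice of the set. The member counts can therefore not be weighed against the shares of all genes.

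**Figure D1:**
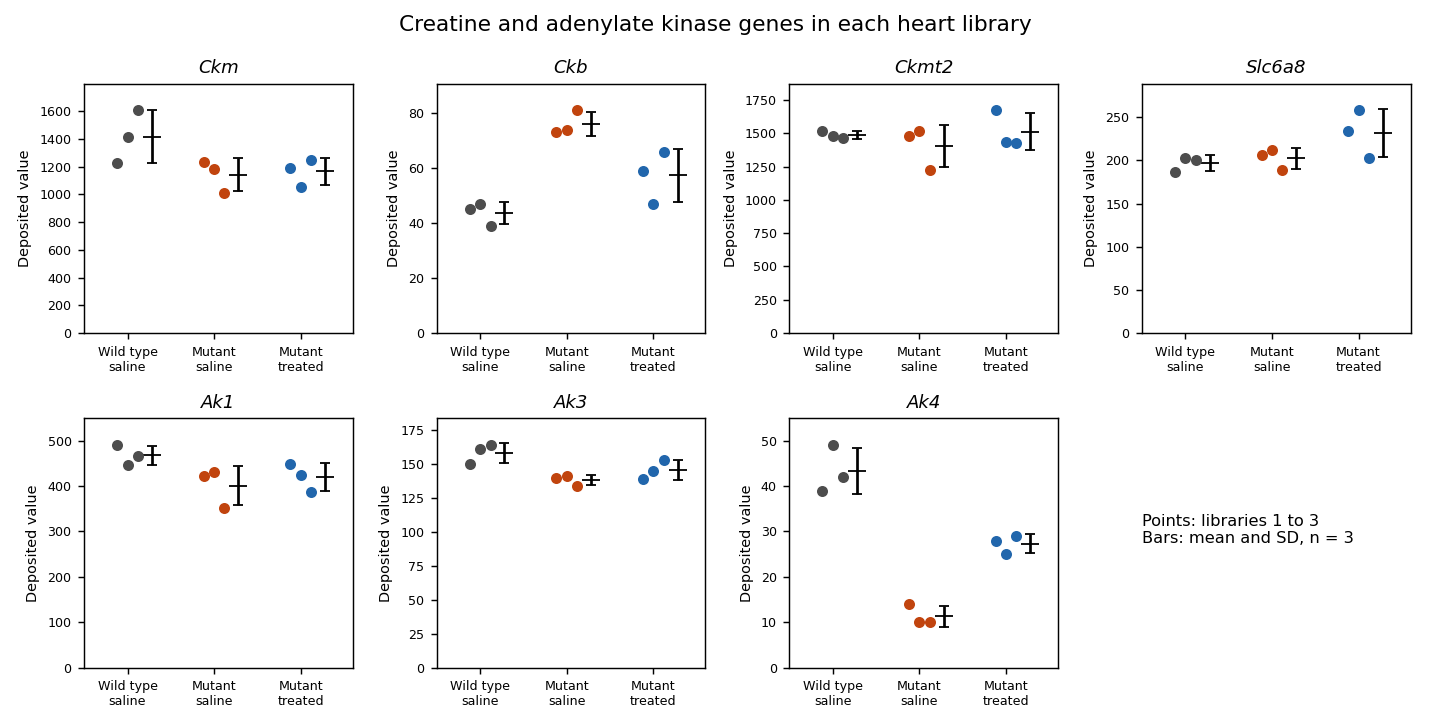
Deposited value (vertical axis, from 0, with its own scale in each panel) of the 7 genes in the 3 libraries of each group, with the mean and SD (n = 3) beside the points. Ak4 lies between 10 and 14 in saline mutants, between 25 and 29 in treated mutants and between 39 and 49 in wild type, while Ckb is highest in saline mutants, between 73 and 81.

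Ckm encodes the cytosolic muscle creatine kinase, bound in part to the M-line of the sarcomere. Its values were 1227, 1414 and 1607 for wild type, 1235, 1184 and 1008 for saline mutants and 1193, 1056 and 1249 for treated mutants. The wild-type libraries were on average the highest, but their lowest value lay below the highest of either mutant group. The mutant mean was 80.7% ± 8.41 of the wild-type mean (SD, n = 3), and the difference on log2(value + 1) was -0.31 (SE 0.13, limma adjusted p 0.253, 95% interval -0.61 to 0.00012). In the authors' deposited table Ckm had a log2 fold change of -0.37 with an unadjusted p of 0.0312, which became 0.613 once adjusted by the Benjamini-Hochberg method.

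Ckb encodes the brain-type cytosolic subunit, which in the adult heart is a minor isoform and is also made by non-muscle cells. Its values were 45, 47 and 39 in wild type and 73, 74 and 81 in saline mutants. Every saline mutant library was above every wild-type library. The mean went from 43.7 ± 4.16 to 76 ± 4.36, which is 174% ± 9.98 of wild type, a log2 difference of 0.79 (SE 0.11, 95% interval 0.54 to 1.04, limma adjusted p 0.00341, 3 of 3 mutant libraries above all wild types). Ckb passed in all 17 alternative fits, with adjusted p-values from 0.00137 to 0.0252. The authors' deposited table had a log2 fold change of 0.73 and included Ckb in its short list, with a p of 0.00364 that became 0.139 once adjusted in the same way. Fibroblast markers (Pdgfra, Dcn, Lum, Col1a1, Tcf21) had higher group means in saline mutants than in wild type. Their summed value was 959 to 1325 in wild type, 1509 to 2295 in saline mutants and 1121 to 1391 in treated mutants. In saline mutants against wild type 5 of 5 had a log2 difference above 0 with 1 called, Col1a1. The groups did not overlap in 3 of the 5 (12.8% of all genes were higher without overlap), while those of Lum and Tcf21 overlapped. Dcn alone was 907, 905 and 1384 in saline mutants. Macrophage markers summed to 179 to 243 in wild type and 199 to 370 in saline mutants, with 0 of 5 called and overlapping groups for each gene. Endothelial markers summed to 847 to 1190 and 776 to 886, and those of smooth muscle and pericytes to 908 to 1078 and 778 to 1030, with none called in either list. Of the neuron and glia markers Th had no entry under its symbol. The summed value of the others was 6 to 12 in wild type and 3 to 6 in saline mutants. The part of these cell types in the rise of Ckb was not tested.

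The balance of the cytosolic isoforms was also read within each library, where a scaling factor cancels. Ckb made up 3.54%, 3.22% and 2.37% of the summed Ckm and Ckb value for wild type, 5.58%, 5.88% and 7.44% for saline mutants and 4.71%, 4.26% and 5.02% for treated mutants. The 3 groups did not overlap, with saline mutants highest and treated mutants between. The mean share was 3.04% ± 0.604 in wild type, 6.30% ± 0.997 in saline mutants and 4.66% ± 0.381 in treated mutants (SD, n = 3 each). Saline mutants exceeded wild type by 3.26 percentage points and treated mutants by 1.62 percentage points, each with an exact two-sided permutation p of 0.1, the smallest that 3 against 3 libraries can give. Both comparisons use the same wild-type libraries. On the log2 scale the ratio of Ckb to Ckm was higher by 1.11 and by 0.66. The summed value of both genes was 1460 ± 187 in wild type, 1218 ± 115 in saline mutants and 1223 ± 109 in treated mutants, so Ckm set most of the total in every library.

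**Figure D2:**
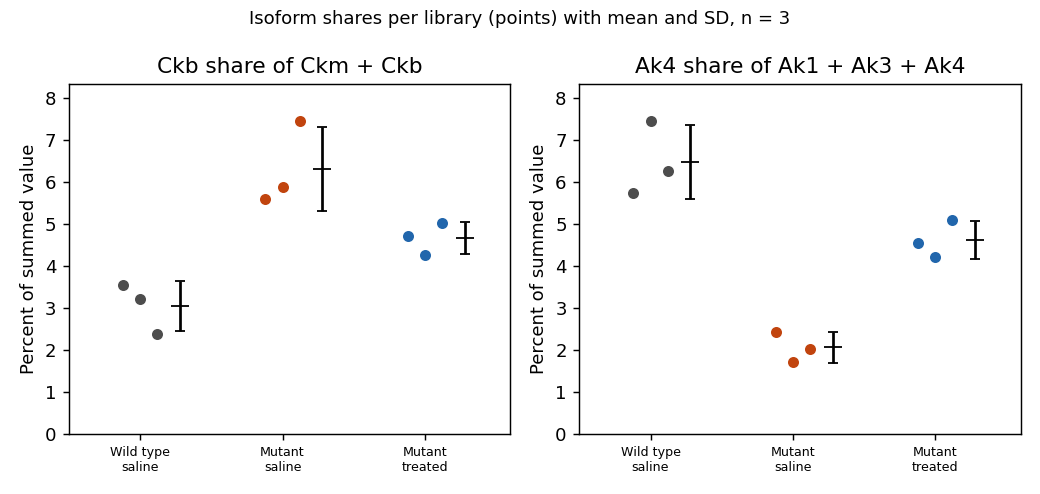
Left, Ckb as a percentage of the summed Ckm and Ckb value; right, Ak4 as a percentage of the summed Ak1, Ak3 and Ak4 value, in each library (points) with mean and SD (n = 3). Ckb shares run from 2.37% to 3.54% in wild type and from 5.58% to 7.44% in saline mutants, and Ak4 shares run in the other direction, from 5.74% to 7.46% and from 1.72% to 2.43%.

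Ckmt2 encodes the sarcomeric mitochondrial creatine kinase of the intermembrane space. Its values were 1518, 1479 and 1465 for wild type, 1477, 1515 and 1225 for saline mutants and 1673, 1437 and 1428 for treated mutants. Apart from saline mutant replicate 3 at 1225 and treated replicate 1 at 1673, all libraries lay between 1428 and 1518. Saline mutants differed from wild type by -0.09 (SE 0.12, limma adjusted p 0.742, 95% interval -0.35 to 0.17), a difference whose sign turned without saline mutant replicate 3 (0.0084) and without the 3 libraries with Xist (0.02).

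Slc6a8, the creatine transporter of the plasma membrane, had values of 186, 203 and 201 for wild type, 206, 212 and 189 for saline mutants and 234, 258 and 203 for treated mutants. Wild-type and saline mutant libraries overlapped. Their difference was 0.04 (SE 0.09, limma adjusted p 0.873, 95% interval -0.18 to 0.26), and it changed sign with median-of-ratios (-0.03) and upper-quartile (-0.04) factors.

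Ak1 encodes the cytosolic adenylate kinase of muscle and red blood cells. It was 490, 447 and 465 for wild type, 421, 430 and 351 for saline mutants and 449, 424 and 387 for treated mutants. All 3 saline mutants lay below all wild types, yet the difference of -0.23 (SE 0.11, 95% interval -0.48 to 0.02) did not pass, at a limma adjusted p of 0.3. Ak3 encodes the GTP-dependent adenylate kinase of the mitochondrial matrix. Its values were 150, 161 and 164 for wild type, 140, 141 and 134 for saline mutants and 139, 145 and 153 for treated mutants. Saline mutants again lay below wild type without overlap, at 87.4% ± 2.39 of the wild-type mean, and the difference of -0.19 (SE 0.09, 95% interval -0.40 to 0.01) did not pass (limma adjusted p 0.282). Neither gene was called in any of the 17 alternative fits.

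Ak4 encodes a second matrix adenylate kinase, known as a hypoxia-responsive gene with weak catalytic activity. Its values were 39, 49 and 42 for wild type, 14, 10 and 10 for saline mutants and 28, 25 and 29 for treated mutants. Each group formed its own range, with wild type highest, saline mutants lowest and treated mutants between. The saline mutant mean was 26.2% ± 5.33 of wild type, a log2 difference of -1.86 (SE 0.16, 95% interval -2.22 to -1.49, limma adjusted p 0.000405, 3 of 3 mutant libraries below all wild types). It passed in all 17 alternative fits, with adjusted p-values from 5.06e-05 to 0.00646. The authors' deposited table gave a log2 fold change of -2.001 and listed Ak4 among its selected genes. These mutant libraries are the ones against which Ak4 was chosen, so a low level in them is partly what the choice looked for.

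**Figure D3:**
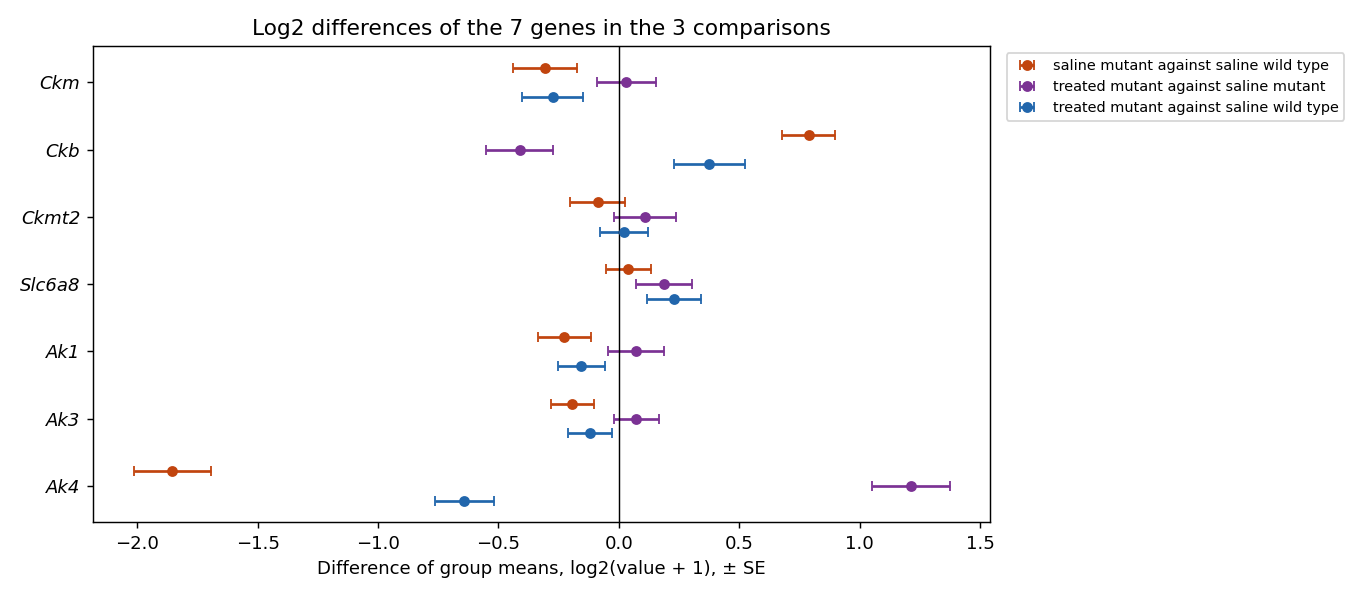
Difference of group means on log2(value + 1) (horizontal axis) with its SE for each of the 7 genes, coloured by comparison. Ak4 stands far left at -1.86 for saline mutant against wild type and far right at 1.21 for treated against saline mutant, whereas Ckm, Ckmt2, Slc6a8, Ak1 and Ak3 stay within 0.31 of 0.

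Among the markers fixed for other cells, the red blood cell genes were also lowest in saline mutants. The summed value of Hba.a1, Hba.a2, Hbb.bs, Hbb.bt and Alas2 was 104 to 313 in wild type, 69 to 85 in saline mutants and 140 to 158 in treated mutants. All 5 had lower values in saline mutants without overlap, with a median log2 difference of -1.36, and 2 of them were called, Hba.a2 and Alas2. The globin Hbb.bs was 143, 161 and 53 in wild-type hearts, where Ak4 was 39, 49 and 42. The part of blood in the Ak4 and Ak1 values was not tested.

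Between the adenylate kinases, Ak4 made up 5.74%, 7.46% and 6.26% of the summed Ak1, Ak3 and Ak4 value for wild type, 2.43%, 1.72% and 2.02% for saline mutants and 4.55%, 4.21% and 5.10% for treated mutants. The groups did not overlap. The means were 6.49% ± 0.880, 2.06% ± 0.358 and 4.62% ± 0.448 (SD, n = 3 each). Against its matrix relative alone, Ak4 was 21.5% ± 1.63 of the summed Ak3 and Ak4 value in wild type, 7.55% ± 1.34 in saline mutants and 15.8% ± 1.04 in treated mutants. These shares include the gene that was chosen and are given without a test. The summed value of the 3 kinases was 669 ± 11.1, 550 ± 48.0 and 593 ± 23.5 in the same order, most of it Ak1.

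The comparison of treated with saline mutant hearts asks what the treatment changes in mutant animals. Treated mutants were given the editor with its virus and the others saline, so editor and virus cannot be told apart. This comparison is the contrast used in choosing the set, and nothing is read from it beyond the values. Ak4 was higher in all 3 treated libraries, with a mean of 27.3 ± 2.08 beside 11.3 ± 2.31, a log2 difference of 1.21 (SE 0.16). It stood 33rd by log2 difference among the 5532 genes with higher values after treatment, and it was one of 137 genes in the authors' deposited short list for this contrast. Once the authors' p-values were adjusted by the Benjamini-Hochberg method, 10 genes were under 0.05, and Ak4 was not among them. On a scale where the saline mutant mean is 0% and the wild-type mean 100%, the treated libraries had Ak4 positions of 52.1%, 42.7% and 55.2% (mean 50% ± 6.51). Ckb was 59, 47 and 66 in treated hearts, all below the lowest saline mutant at 73, with a log2 difference of -0.41 (SE 0.14). The other 5 differences were 0.03 for Ckm, 0.11 for Ckmt2, 0.19 for Slc6a8, and 0.07 each for Ak1 and Ak3, and in each of these the groups overlapped. Ak4 was the 1 member of 7 past 1.5-fold, where 4.44% of the 13636 genes tested were. The groups did not overlap in 2 members, Ak4 and Ckb, and in 9.82% of all genes. Ak4 is in both counts and was chosen on this contrast, so the counts cannot be weighed against these shares.

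The comparison of treated mutant with saline wild-type hearts asks what still differs after treatment. No member was called, where 0.989% of the 13554 genes tested were, and Ak4 was the 1 member whose groups did not overlap (14.6% of all genes). At an unadjusted p under 0.05 there were 2 members, Ak4 and Ckb, beside 12.5% of all genes. Treated hearts had Ak4 at 63.1% ± 4.80 of the wild-type mean, a log2 difference of -0.64 (SE 0.12, limma adjusted p 0.0709, 95% interval -0.93 to -0.36). It passed with median-of-ratios factors (adjusted p 0.0303), upper-quartile factors (0.0248) or the prior taken from all genes (0.0369), and over all 17 alternatives the adjusted p ran from 0.0248 to 0.219. High Ak4 values in these treated libraries are partly what the choice looked for. Its difference from wild type may therefore be understated, and its p-values carry that limit. The authors' deposited table listed Ak4 here too, with an unadjusted p of 0.0438 that became 1.0 after Benjamini-Hochberg adjustment.

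Ckb in treated hearts was 131% ± 22.0 of the wild-type mean. Treated replicate 2, at 47, equalled the highest wild-type library, so the groups touched, and the difference of 0.38 (SE 0.15, 95% interval 0.03 to 0.72) did not pass (limma adjusted p 0.347). Ckm stood at 82.3% ± 7.01 of wild type, near its level in saline mutants, with a difference of -0.27 (SE 0.13, limma adjusted p 0.433). Slc6a8 was at 118% ± 14.0 of wild type, with treated replicates 1 and 2 above every other library and replicate 3 within the wild-type range (difference 0.23, SE 0.11, limma adjusted p 0.461). Ckmt2 was at 102% ± 9.34, a difference of 0.02 (limma adjusted p 0.992) that turned negative with median-of-ratios (-0.03) and upper-quartile (-0.07) factors. Ak1 differed by -0.16 and Ak3 by -0.12, at limma adjusted p-values of 0.566 and 0.653. Both comparisons with wild type share the same 3 wild-type libraries, so their values are set side by side and not correlated.

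Related genes of the pathway, 35 in 5 groups, were read in the same fits. The groups were listed with earlier results of these data known. Their counts stand beside the shares of all genes only as a description. Of the 35 genes, 29 had an entry under their symbol among the deposited values, and 28 passed the filter at a mean value of 1. In saline mutants against wild type 3 of 28 were called, 2 higher and 1 lower, where 7.70% of all genes were, and the median log2 difference of the 28 was 0.00, beside 0.07 for all genes. All 3 belonged to the group of AMP sensing and adenylate breakdown, the largest group, with 13 of the 28 genes. In treated mutants against wild type 0 of 28 were called by limma, and 3 had an unadjusted p under 0.05, as did 12.5% of all genes.

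**Figure D4:**
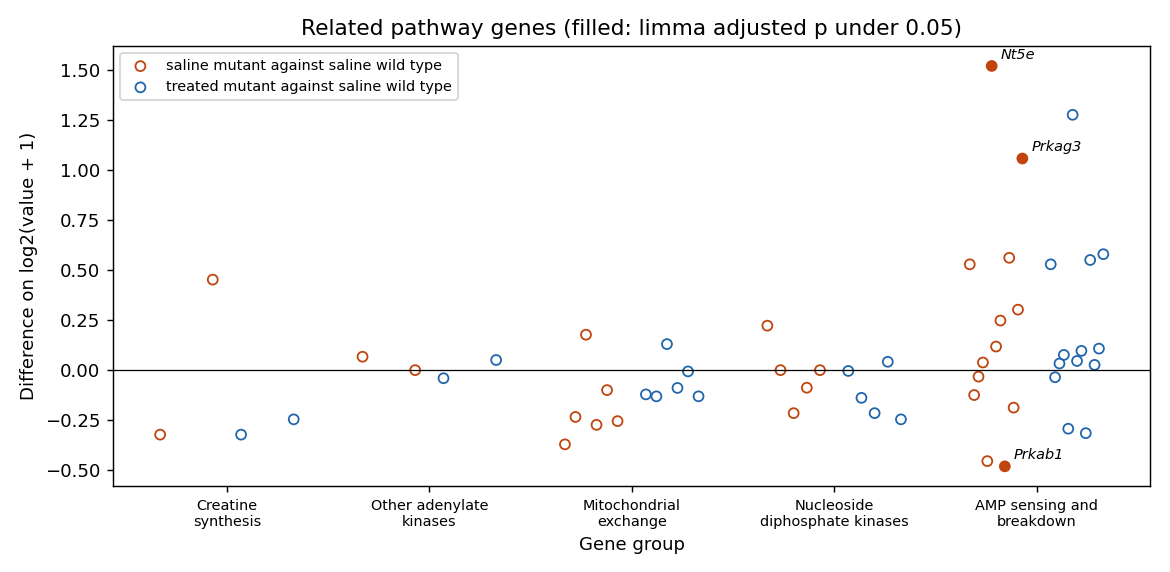
Difference on log2(value + 1) (vertical axis) of the related genes in 5 groups, against wild type, for saline mutants (left points of each group) and treated mutants (right points). Filled points passed the test; these are Nt5e at 1.52, Prkag3 at 1.06 and Prkab1 at -0.48, all in saline mutants.

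Nt5e encodes the cell-surface nucleotidase CD73, which turns AMP into adenosine outside the cell. Its values were 14, 13 and 23 for wild type, 39, 51 and 56 for saline mutants and 41, 49 and 33 for treated mutants. Both mutant groups lay above wild type. Its log2 difference was 1.52 in saline mutants (SE 0.22, limma adjusted p 0.0042) and 1.27 in treated hearts, which did not pass (SE 0.23, limma adjusted p 0.063). Its call in saline mutants was lost without the 3 libraries with Xist (adjusted p 0.051, log2 difference 1.32). Prkab1 and Prkag3 encode a beta and a gamma subunit of the AMP-activated protein kinase. Prkab1 was 35, 40 and 35 in wild type and 24, 26 and 28 in saline mutants, a log2 difference of -0.48 (SE 0.12, limma adjusted p 0.041). Prkag3, the gamma subunit best known from skeletal muscle, was 1, 3 and 2 in wild type and 5, 5 and 5 in saline mutants (log2 difference 1.06, SE 0.26, limma adjusted p 0.0399), a range close to the rounding of the values. Prkab1 kept its call in 8 of 17 alternative fits and Prkag3 in 7 of 16, and each of the 6 fits without a single library ended the call of Prkab1.

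The other groups had no gene called against wild type, though Slc25a3 was called in saline mutants with all 9 libraries in one fit, and Gamt, which completes creatine synthesis, in both comparisons without the rounding floor. Of the 6 mitochondrial exchange genes, which carry ADP, ATP and phosphate across the mitochondrial membranes, 5 were lower in value in saline mutants. The median log2 difference of the 6 was -0.24, beside 0.07 over all genes tested. The phosphate carrier Slc25a3 had the largest, with 1833, 1641 and 1780 for wild type, 1411, 1391 and 1262 for saline mutants and 1741, 1574 and 1519 for treated mutants (-0.37, SE 0.11, limma adjusted p 0.0769). All saline mutants were below all wild types. For creatine synthesis, Gatm, which makes guanidinoacetate, was 7, 7 and 4 in wild type and 6, 8 and 12 in saline mutants (0.45, SE 0.27, limma adjusted p 0.413). Ckmt1, Ak5, Ak7 and Ak8 had no entry under these symbols among the deposited values. Among the nucleoside diphosphate kinases the largest was Nme7 in treated hearts (-0.25, SE 0.19, limma adjusted p 0.656), at values of 2 to 4.

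The members differed in how closely their patterns over the 9 libraries resembled one another. Likeness was measured as the root mean square difference of log2(value + 1) after each gene was centred on its own mean, over 9 libraries. Ckmt2 and Ak1 were the closest pair of members, at 0.09, followed by Ak1 and Ak3 at 0.12 and Ckm and Ak3 at 0.12. This measure is small for any genes that vary little. The root mean square around the gene's own mean was 0.19 for Ckm, 0.11 for Ckmt2, 0.14 for Ak1 and 0.09 for Ak3. The farthest pair was Ckb and Ak4 at 1.10. Among 8785 other genes whose mean over the libraries was 10 or more, the nearest to Ak4 was Lgr6, a receptor of the R-spondin family of ligands, at 0.18, and it was the 1 gene within 0.2 of Ak4. Lgr6 was 61, 66 and 63 for wild type, 22, 17 and 15 for saline mutants and 33, 47 and 40 for treated mutants. Its groups were ordered as those of Ak4 and did not overlap. The next were Emilin2, an extracellular matrix glycoprotein, at 0.23, the amino acid transporter gene Slc36a2 at 0.23, Crhr2, a receptor for urocortins, at 0.24, and Phkg1, the muscle catalytic subunit of phosphorylase kinase, at 0.24. All 5 were lower in saline mutants than in wild type by between -2.07 and -1.54. These genes were picked for their likeness to Ak4 over the same 9 libraries. Their shared order and direction therefore follow from the choice and are a description only. In saline mutants Slc36a2 was 6, 3 and 3, Crhr2 7, 8 and 5 and Phkg1 5, 4 and 3, low values that rounding limits.

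**Figure D5:**
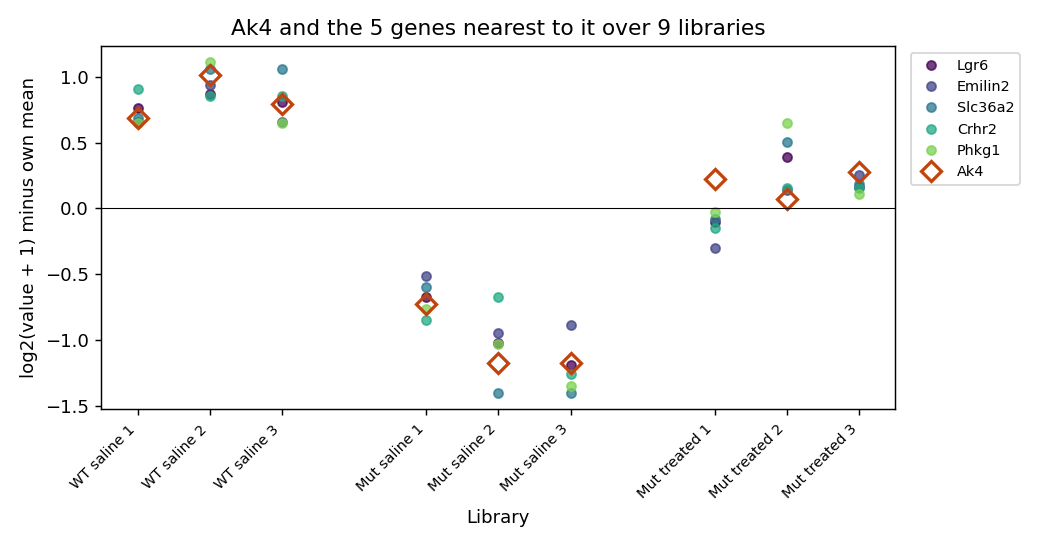
Log2(value + 1) minus the gene's own mean (vertical axis) in each of the 9 libraries (horizontal axis) for Ak4 (open diamonds) and the 5 genes nearest to it (filled points). All 6 are above 0 in the wild-type libraries and below 0 in the saline mutants, while every treated library is above the saline mutants of the same gene and none is above the highest wild-type library of that gene. The 5 genes were picked for this likeness to Ak4.

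Ckb had 155 genes within 0.2, the nearest being Pik3r3, a regulatory subunit of phosphoinositide 3-kinase, at 0.08, with 13, 16 and 11 for wild type, 21, 22 and 26 for saline mutants and 19, 15 and 20 for treated mutants. The remaining members varied less, and many genes came as close to them: 1020 genes lay within 0.2 of Ckm (nearest Trmt2b), 2367 of Ak1 (Btbd2), 3049 of Ckmt2 (Opa3), 3166 of Slc6a8 (Fxr2) and 4109 of Ak3 (Hsd17b4).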

How the data were processed

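RNA of mouse hearts was sequenced in 9 libraries, 3 in each of 3 groups. HISAT2, HTSeq, DESeq2 and the build mm10 are named in the submitters' processing notes without a role or order. The deposited value per gene and library is treated as a score: the authors scaled each library to nearly the same total and rounded to whole numbers, and no header names the unit. The authors' deposited tables also hold a mean signal, log2 fold changes with standard errors and a statistic; their column of adjusted p-values, as deposited, held the two-sided normal p of the statistic without adjustment in all 3 tables, and the other p-value column was 55487 times smaller. Gene symbols have dots for hyphens.

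Groups were compared pairwise with limma 3.58.1 (R 4.3.3) on log2(value + 1) over all genes with a mean of at least 1 in the 6 libraries, with a trend prior, residual variances no smaller than that of rounding, and the prior degrees of freedom taken from genes with a mean of at least 30. Genes with a Benjamini-Hochberg adjusted p under 0.05 over all genes were called. A fold change on this scale understates changes of low genes. The fit was tested on simulated data. Shares within a library were compared with exact permutation tests (scipy 1.17.1). The members, gene lists and variance step were chosen with earlier results of these data known. The rule for named genes took the members, Mybpc3, called genes of 5 related groups or otherwise the gene with the largest difference in a group, and the nearest patterns (5 for Ak4, 1 for the others). One gene that this rule names is not reported here. Of the 7 members, 6 had a RefSeq promoter entry. The alternatives changed the pseudocount, filter, scaling, variance step, libraries and replicate block. Markers of skeletal muscle (Myh1, Myh2, Myh4, Tnnt3, Tnni2, Actn3, Mylpf) summed to 1 to 5 in every library, where Myh1, Myh2 and Actn3 had no entry under their symbols.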

Additional observations from a re-analysis of the deposited data

How the results depend on the processing

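Depth is unknown, so precision rests on 3 libraries a group, and the rounding to whole numbers limits genes near 1 to 5. In saline mutants against wild type, 2 members (Ak4 and Ckb) were called in each of 17 alternatives. In treated mutants against wild type the number of members called was 0 except under median-of-ratios factors, upper-quartile factors and the prior from all genes, where it was 1, Ak4. Of the related genes, 3 were called in saline mutants; this fell to 1 without a filter on low values and to 0 without the 3 libraries with Xist, ranged from 1 to 2 with 1 library left out, and was 4 with all 9 libraries in one fit (adding Slc25a3); without the rounding floor it was 3, with Gamt in place of Prkag3. In treated mutants it was 0, and 1 with limma's trend and no rounding floor (Gamt), with the prior from all genes or with all 9 libraries in one fit (both Nt5e). Taken over Ak3 and Ak4 only, the Ak4 share was 21.5%, 7.55% and 15.8% in place of 6.49%, 2.06% and 4.62% (wild type, saline mutant, treated); these denominators differ by construction. With 1 library left out the shares ranged from 6.00% to 6.86%, 1.87% to 2.23% and 4.38% to 4.82%, and the excess of the Ckb share over wild type from 2.69 to 3.62 percentage points in saline and from 1.29 to 1.87 in treated mutants. For Ckmt2 the log2 difference reversed, in saline mutants to 0.0232 without the Xist libraries, and in treated mutants to -0.0295 and -0.0660 with median-of-ratios and upper-quartile factors and to -0.0392 without the Xist libraries; with 1 library left out it ranged from -0.14 to 0.0084 and from -0.0540 to 0.0601. For Slc6a8 in saline mutants it reversed to -0.0274 and -0.0440 with those factors. None of these reversed differences was called, and the cause was not tested. Replicate numbers are shared between groups. Whether they pair the libraries cannot be settled here, since libraries with different numbers were not correlated. The correlations of same-numbered deviations from the group means were -0.23, -0.10 and -0.37 for saline mutant and wild type. For treated and wild type they were 0.57, 0.15 and 0.03. With a replicate block 2 and 0 members and 2 and 0 related genes were called in these comparisons, and 819 and 35 genes overall in place of 1050 and 134. For the treated and saline mutant groups, which were compared without a test of the members, the same correlations were -0.07, 0.20 and 0.12. Over all genes, the number called in treated mutants against wild type was between 1 and 133 with 1 library left out, 243 with the prior from all genes, 77 without the rounding floor, 236 with all 9 libraries in one fit and 9 without the Xist libraries. The 134 genes split into 117 higher and 17 lower, and this became 127 and 40 with median-of-ratios and 114 and 46 with upper-quartile factors. In saline mutants against wild type the number was 506 to 1029 with 1 library left out and 556 without the Xist libraries.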
